A study of Mus musculus with 21 samples.

Results

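The comparison described here is the difference between C57BL/6 and A/J mice in the change of lung gene expression after bleomycin, that is the change at 3 weeks in C57BL/6 minus the change at 3 weeks in A/J, tested as a strain by treatment interaction. It rests on 10 of the 21 arrays of the series, chosen by the strain and stage that their labels give. Each array held total RNA of whole right lung, pooled over several mice of 1 sex. Treated mice had received bleomycin, an antitumour antibiotic that breaks DNA, from an osmotic minipump. The C57BL/6 arrays at 3 weeks were a male pool at 100 mg/kg and a female pool at 125 mg/kg (n = 2), and the C57BL/6 controls were a male and a female pool (n = 2). The A/J arrays at 3 weeks were male pools at 80 and 100 mg/kg and female pools at 100 and 125 mg/kg (n = 4), and the A/J controls were a male and a female pool (n = 2). The labels do not say what the control mice received or how old the mice were. The replicates of a group are pools of different sex and in part of different dose, so p-values measure the spread between such pools and not between single mice.

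Bleomycin injures the alveolar epithelium and the capillary endothelium, and the injured lung recruits macrophages, activates fibroblasts and lays down extracellular matrix. Inbred strains differ in how far this goes, and C57BL/6 is known as a strain prone to bleomycin fibrosis. TGF-beta is the growth factor best known for driving matrix production in this setting, and matrix is turned over by metalloproteases and their inhibitors.

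Each gene was represented by its brightest probe set, and 9079 genes were tested. Signals are intensities after quantile normalization, given per array with males before females and lower before higher doses. Changes and differences are on the log2 scale of the signal plus 16, which understates changes of dim genes. A positive difference means that the change in C57BL/6 lay above the change in A/J. A call is a Benjamini-Hochberg adjusted p under 0.05 in limma's moderated test over all genes.

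The deposited array medians ran from 85.6 to 99.85 in C57BL/6 at 3 weeks, 109.2 to 111.15 in C57BL/6 controls, 58.4 to 80.1 in A/J at 3 weeks and 82.8 to 89.6 in A/J controls. Gapdh control probe sets at both ends of the transcript gave a 3′ over 5′ ratio, which rises with RNA degradation, of 1.0 to 1.06 on the C57BL/6 arrays at 3 weeks, 0.853 to 0.928 on the C57BL/6 controls, 0.862 to 1.16 on the A/J arrays at 3 weeks and 1.09 to 1.34 on the A/J controls. The lung markers Sftpc, Scgb1a1 and Sftpb, which encode surfactant proteins C and B and the club cell secretory protein, were near the top of the signal scale on all 10 arrays, with Sftpb between 3688 and 5079. Xist signals ran from 902 to 2626 on the female arrays and from 83.1 to 287 on the male arrays, the highest male value being that of A/J at 80 mg/kg. On the first principal component of all 21 arrays, which held 30.4% of the variance, the C57BL/6 arrays at 3 weeks lay at 23.3 to 29.8, the C57BL/6 controls at −2.92 to −2.30, the A/J arrays at 3 weeks at −10.2 to −5.00 and the A/J controls at −19.5 to −18.4. On this axis the C57BL/6 arrays at 3 weeks stood apart from the remaining arrays of the comparison, while treated C57BL/6 arrays outside it lay at 20.4 to 34.1.

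The change differed between the strains in 142 of 9079 genes (1.56%), with 84 positive (0.925%) and 58 negative (0.639%) differences. A total of 1361 genes had an unadjusted p under 0.05, where 454 would be counted if no gene differed. Among the 142 genes, 107 differed by more than 2-fold and 10 by more than 4-fold. Within strains, 1186 genes (13.1%) changed at 3 weeks in C57BL/6, of which 644 rose (7.09%) and 542 fell (5.97%), and 94 genes (1.04%) changed in A/J, of which 72 rose (0.793%) and 22 fell (0.242%). The level at 3 weeks differed between the strains in 1471 genes (16.2%), with 642 higher (7.07%) and 829 lower (9.13%) in C57BL/6, and the level in controls in 254 (2.8%). Under the deposited scaling, without quantile normalization, 25 genes differed, 22 positive and 3 negative, and with arrays scaled to 1 median 104 did, 83 positive and 21 negative. The deposited scaling moved the all-gene median to 0.19 for the difference, −0.16 for the C57BL/6 change and −0.35 for the A/J change, so all changes given here are relative to the bulk of the genes. The share of risers among called genes was then 41.9% in C57BL/6 and 24.6% in A/J, against 54.3% and 76.6% under quantile normalization. The level at 3 weeks then differed in 1494 genes, with 1425 higher and 69 lower in C57BL/6. The split of these level differences by direction thus depended on the scaling. The C57BL/6 change had 2 arrays against 2 and the A/J change 4 against 2. The count of 142 was not stable. It was 40 with the Gapdh 3′ over 5′ ratio as a covariate. At matched doses, with only the A/J arrays at 100 mg/kg for males and 125 mg/kg for females, it was 36. That setting also has fewer A/J arrays, so dose and the number of arrays cannot be told apart. The count also depended strongly on single arrays, as the closing section gives.

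The 84 positive differences were mostly genes that rose in C57BL/6 and moved little in A/J, as the plot of both changes shows. Their median change was 1.36 in C57BL/6 and 0.11 in A/J, and the A/J changes ranged from −0.76 to 1.90. Over the 58 negative differences the median change was −1.22 in C57BL/6 and −0.06 in A/J. These medians describe the values by which the genes were called. The level of the positive genes, C57BL/6 minus A/J, had a median of 1.03 at 3 weeks and of −0.26 in controls. For the negative genes these medians were −0.93 at 3 weeks and 0.18 in controls.

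The C3H/HeJ mice of the series, the remaining strain whose arrays take no part in the difference, changed by a median of 0.43 over the 84 positive genes and of −0.37 over the 58 negative genes. Their change was nearer to that of A/J than to that of C57BL/6 in 73 of the 84 and in 48 of the 58. The genes were chosen for a large C57BL/6 or A/J value, so these counts are a description without a test.

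**Figure D1:**
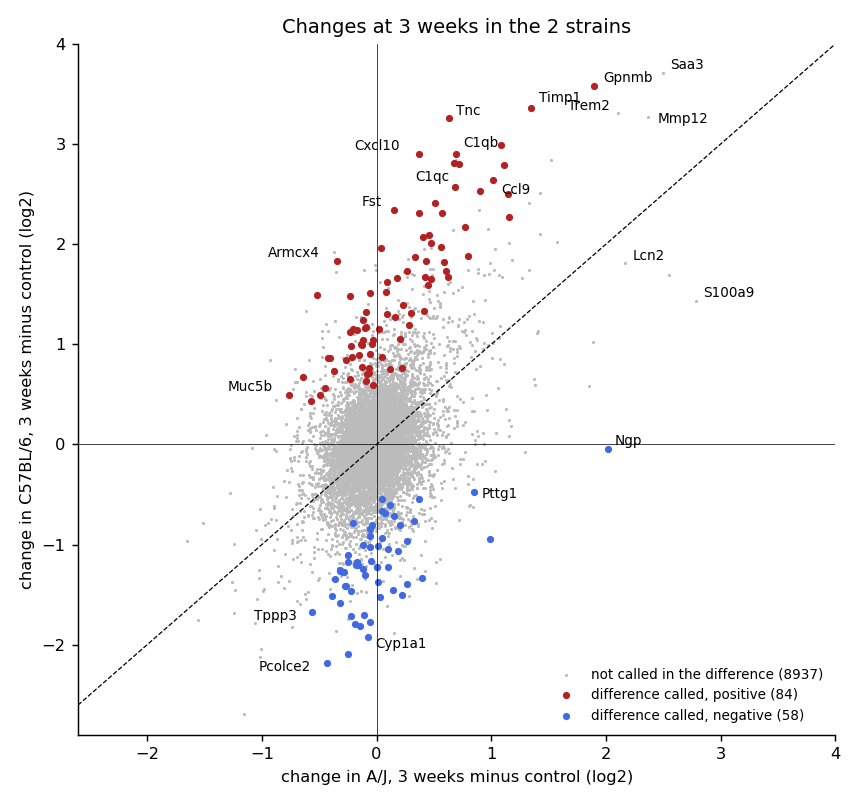
Change at 3 weeks in A/J (horizontal axis) against the change at 3 weeks in C57BL/6 (vertical axis), both log2, for 9079 genes. Red points are the 84 called positive differences, blue points the 58 called negative ones, grey points genes not called, and the dashed line marks equal changes. Red points lie mostly above 0 on the C57BL/6 axis and near 0 on the A/J axis, while Ngp lies near 0 in C57BL/6 and at 2.02 in A/J.

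Genes that changed in one strain mostly had a change of the same sign in the other. Over all 9079 genes the 2 sets of changes, which share no arrays, had a Pearson correlation of 0.425, and the SD across genes was 0.475 in C57BL/6 and 0.272 in A/J. Genes are not independent replicates, so no test is attached. The 644 genes that rose in C57BL/6 had a median change of 0.85 there and of 0.23 in A/J, with a positive A/J value in 81.8%. The 542 that fell had medians of −0.78 in C57BL/6 and −0.15 in A/J, with a negative A/J value in 77.7%. Starting from A/J, 70 of the 72 genes that rose there had a positive C57BL/6 value, with medians of 1.27 in C57BL/6 and 1.01 in A/J. Of the 22 that fell in A/J, 21 had a negative C57BL/6 value, and the median was −0.75 in C57BL/6 and −0.85 in A/J. Choosing genes by their call in 1 strain enlarges that strain's median.

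Of the gene lists examined, which differ in size, the macrophage markers held the most positive differences by count. The shares over all genes, 0.925% positive and 0.639% negative, stand beside the counts of this and every later list. For changes within a strain the shares over all genes were 7.09% risers and 5.97% fallers in C57BL/6. In A/J they were 0.793% and 0.242%, so most lists would hold more called changes in C57BL/6. Of 34 tested macrophage markers 9 had a positive and 0 a negative difference, with a median difference of 0.71 against 0.01 over all genes (4 calls under the deposited scaling and 4 at matched doses), and the median change was 1.19 in C57BL/6 and 0.48 in A/J. Gpnmb, a membrane glycoprotein of lipid-laden macrophages, had signals of 1143 and 998 in C57BL/6 lungs at 3 weeks against 70.8 and 78.2 in C57BL/6 controls, and 639.6, 558, 545 and 822 in A/J lungs at 3 weeks against 167 and 149.5 in A/J controls. Treated and control arrays were separate in both strains, C57BL/6 controls were below A/J controls, and C57BL/6 lungs at 3 weeks were above A/J lungs at 3 weeks. Gpnmb rose in both strains (3.58 in C57BL/6 and 1.90 in A/J) and its difference was 1.69 (SE 0.24, adjusted p = 0.00223), while the controls differed by −0.94 (C57BL/6 minus A/J, adjusted p = 0.0101). Msr1, a scavenger receptor that takes up modified lipoproteins, had signals of 259 and 195 in C57BL/6 lungs at 3 weeks against 14.1 and 23 in C57BL/6 controls, and 109.6, 51.3, 98 and 131 in A/J lungs at 3 weeks against 43.8 and 62 in A/J controls. The C57BL/6 arrays at 3 weeks lay above all others, and the A/J lungs at 3 weeks overlapped with the A/J controls. Its difference was 2.14 (SE 0.42, adjusted p = 0.0153).

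Apoe, the lipid carrier that macrophages secrete, had signals of 5431 and 4865 in C57BL/6 lungs at 3 weeks against 1209 and 1318 in C57BL/6 controls, and 1561, 1508, 1892 and 2159 in A/J lungs at 3 weeks against 1336 and 1194 in A/J controls, and its difference was 1.54 (SE 0.27, adjusted p = 0.00902). Ms4a6d, a membrane protein of the macrophage Ms4a family, differed by 1.91 (SE 0.35, adjusted p = 0.0103) and rose in both strains (3.00 in C57BL/6 and 1.09 in A/J). Fcgr1, the high-affinity receptor for immunoglobulin G, differed by 1.67 (SE 0.30, adjusted p = 0.00994). The other called markers were Ms4a7 (1.74), the Fc receptor Fcgr3 (1.63), the endosomal glycoprotein Cd68 (1.18) and the mannose receptor Mrc1 (1.14). Summed over the 34 markers, signals were 48916 to 51252 in C57BL/6 at 3 weeks against 25974 to 27958 in C57BL/6 controls, and 32542 to 37981 in A/J at 3 weeks against 26487 to 27443 in A/J controls. In RNA of whole lung, more cells of a type and more RNA per cell cannot be told apart, here and for every cell type named later.

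The 3 genes of the first complement component, C1qa, C1qb and C1qc, which are made by tissue macrophages and lie next to each other on chromosome 4, were all among the positive differences. C1qb had signals of 2131 and 1839 in C57BL/6 lungs at 3 weeks against 219.7 and 286 in C57BL/6 controls, and 218, 287, 264 and 473 in A/J lungs at 3 weeks against 201 and 158 in A/J controls. Both C57BL/6 arrays at 3 weeks were above every other array. The differences were 2.21 (SE 0.40, adjusted p = 0.011) for C1qb, 2.08 (SE 0.28, adjusted p = 0.00131) for C1qc and 1.88 (SE 0.28, adjusted p = 0.00295) for C1qa. C1qc and C1qa did not pass in A/J on their own, with changes of 0.72 and 0.69 (adjusted p = 0.0851 and 0.0987). Factor B of the alternative pathway, Cfb, had signals of 329 and 339.9 in C57BL/6 lungs at 3 weeks against 87.4 and 91.9 in C57BL/6 controls, and 97.8, 119, 188 and 149.9 in A/J lungs at 3 weeks against 119 and 101 in A/J controls. It differed by 1.46 (SE 0.26, adjusted p = 0.00994). C3ar1, the receptor for the C3a fragment, differed by 1.11 (adjusted p = 0.0375). Of 18 tested complement and acute phase genes, 5 had a positive and 0 a negative difference, and the list's median change was 1.24 in C57BL/6 and 0.35 in A/J. The calls were 3 under the deposited scaling and 3 at matched doses.

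Lysosomal genes had fewer calls. Of 33 tested, 3 had a positive and 0 a negative difference (0 under the deposited scaling and at matched doses), and the median change was 0.56 in C57BL/6 and 0.25 in A/J. Ctss, the cathepsin that trims the invariant chain for antigen presentation, had signals of 3844 and 3869.9 in C57BL/6 lungs at 3 weeks against 1204 and 1192 in C57BL/6 controls, and 2182, 2368, 1827 and 2638 in A/J lungs at 3 weeks against 1646 and 1687 in A/J controls. All C57BL/6 lungs at 3 weeks exceeded all A/J lungs at 3 weeks, although the C57BL/6 controls were below the A/J controls. Its difference was 1.25 (SE 0.23, adjusted p = 0.0117). The protective protein cathepsin A, Ctsa, differed by 1.16 and the beta-galactosidase Glb1 by 0.78 (adjusted p = 0.0407 and 0.0499).

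**Figure D2:**
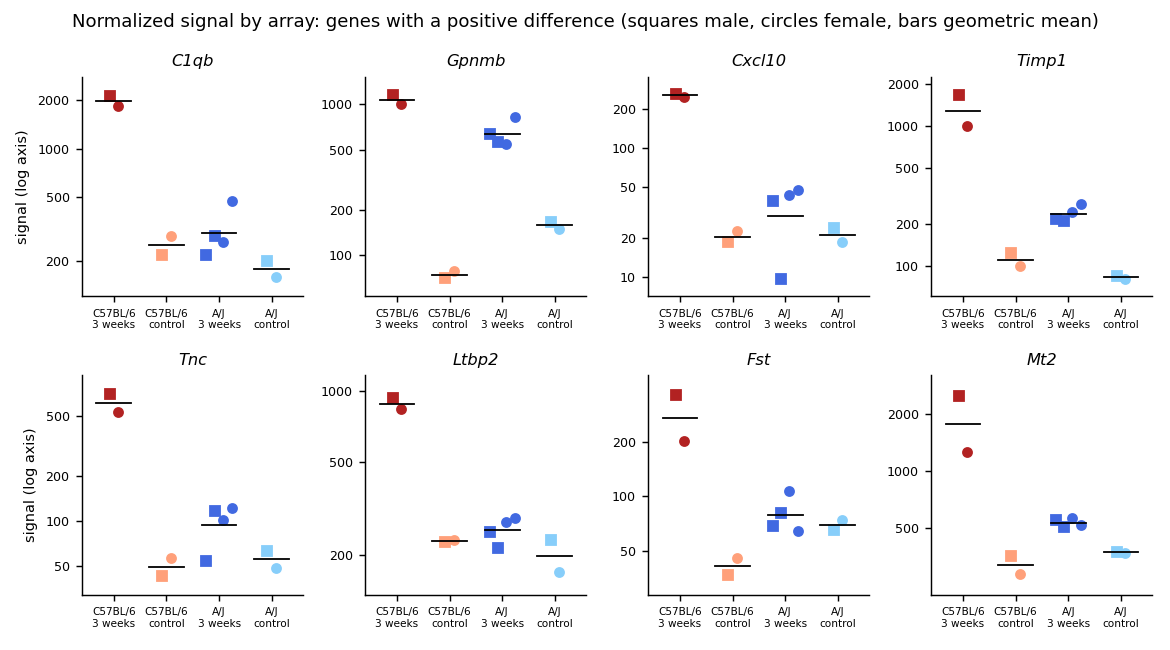
Normalized signal per array on log axes for 8 genes with a positive difference, in C57BL/6 at 3 weeks, C57BL/6 controls, A/J at 3 weeks and A/J controls. Squares are male pools, circles female pools and bars geometric means. In each panel both C57BL/6 arrays at 3 weeks lie above all other arrays.

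Chemokine and interferon-stimulated genes gave 3 and 4 positive differences, in lists of 23 and 30 tested genes, with 0 negative differences in both and Cxcl10 in both lists. Cxcl10, an interferon-induced chemokine that attracts T cells, had signals of 262 and 251 in C57BL/6 lungs at 3 weeks against 18.5 and 22.6 in C57BL/6 controls, and 38.6, 9.55, 43.3 and 47.4 in A/J lungs at 3 weeks against 23.8 and 18.5 in A/J controls. Both C57BL/6 lungs at 3 weeks were above all others, and 1 of the 4 A/J lungs at 3 weeks, the male pool at 100 mg/kg, was below its controls. The difference was 2.53 (SE 0.42, adjusted p = 0.00618). Irf7, a transcription factor of the interferon response, had signals of 534 and 699 in C57BL/6 lungs at 3 weeks against 119.9 and 172 in C57BL/6 controls, and 181, 208, 165 and 213 in A/J lungs at 3 weeks against 123 and 126 in A/J controls. It differed by 1.41 (SE 0.28, adjusted p = 0.0179). Ifit3 and Ifit2, interferon-induced antiviral proteins encoded side by side on chromosome 19, where a near copy of Ifit3 may share its probes, differed by 1.17 and 1.09 (adjusted p = 0.0359 and 0.0359), with changes of 1.04 and 0.87 in C57BL/6 against −0.12 and −0.22 in A/J. Ccl9 and Ccl8, chemokines that attract myeloid cells, differed by 1.63 (SE 0.18, adjusted p = 0.000253) and 1.40 (SE 0.28, adjusted p = 0.0153). Ccl9 rose in both strains, and its signals were 1176 and 1247 in C57BL/6 lungs at 3 weeks against 163 and 200.1 in C57BL/6 controls, and 408, 426, 502 and 531 in A/J lungs at 3 weeks against 227 and 217 in A/J controls. Over all 30 interferon-stimulated genes the median change was 0.46 in C57BL/6 and 0.27 in A/J, and 13 rose in C57BL/6 against 0 in A/J. Of all genes 7.09% rose in C57BL/6 and 0.793% in A/J, so 0 of 30 in A/J was near the share over all genes. The 4 interferon calls were 1 under the deposited scaling and 1 at matched doses, and the 3 chemokine calls were 3 and 2.

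Promoter windows of the called interferon-stimulated genes Cxcl10, Ifit3, Irf7 and Ifit2 were searched for a motif, and only those with a match, of Cxcl10 and Ifit3, are shown. The window of Mt2 is shown because its induction through metal response elements is textbook knowledge. Each runs from 250 bases before to 50 bases after the RefSeq start site (GRCm38.p6), is written 5′ to 3′ on the gene's strand, and has motif matches in capitals. The interferon-stimulated response element was searched as GAAANNGAAA and the metal response element as TGCACNC or TGCGCNC, on both strands.
Cxcl10, chr5:92348840-92349139, minus strand: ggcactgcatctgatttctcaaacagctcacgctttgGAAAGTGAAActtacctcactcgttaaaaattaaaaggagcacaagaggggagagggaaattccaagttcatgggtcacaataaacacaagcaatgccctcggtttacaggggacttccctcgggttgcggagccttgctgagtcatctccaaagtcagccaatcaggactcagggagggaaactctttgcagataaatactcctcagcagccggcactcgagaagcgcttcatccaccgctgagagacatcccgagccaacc
Ifit3, chr19:34583279-34583578, plus strand: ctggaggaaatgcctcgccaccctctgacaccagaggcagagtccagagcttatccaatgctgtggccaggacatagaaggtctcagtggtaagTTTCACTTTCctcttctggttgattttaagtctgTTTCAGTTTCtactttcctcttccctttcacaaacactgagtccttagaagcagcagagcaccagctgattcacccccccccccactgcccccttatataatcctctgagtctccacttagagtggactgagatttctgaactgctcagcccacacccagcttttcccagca
Mt2, chr8:94172368-94172667, plus strand: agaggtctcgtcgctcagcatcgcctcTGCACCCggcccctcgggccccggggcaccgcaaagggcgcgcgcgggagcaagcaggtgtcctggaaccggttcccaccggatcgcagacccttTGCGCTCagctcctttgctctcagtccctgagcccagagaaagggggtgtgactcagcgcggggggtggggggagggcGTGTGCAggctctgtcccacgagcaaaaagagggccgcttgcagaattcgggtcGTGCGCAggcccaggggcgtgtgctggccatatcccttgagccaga

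The Cxcl10 window held 1 match, starting 213 bases before the start site, and the Ifit3 window 2 matches, at 156 and 122 bases before it. The windows of Irf7 and Ifit2 held 0 matches to these letters. Of 27025 genes with a window, 3.99% had such a match in at least 1 window. The share was 3.87% of the 7332 tested genes with a window. It was 6 of 67 genes with a positive difference (8.96%) and 1 of 45 with a negative one (2.22%). The Mt2 window held 4 matches of the metal response element. At least 1 such match was present in 28.2% of all genes with a window and in 39.9% of the tested ones. The metal response element was matched in 22 of 67 genes with a positive difference (32.8%) and in 19 of 45 with a negative one (42.2%). A match describes the sequence only.

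Mt2, a metallothionein that binds zinc and copper, had signals of 2500.3 and 1261 in C57BL/6 lungs at 3 weeks against 358 and 286 in C57BL/6 controls, and 551, 507, 567 and 522 in A/J lungs at 3 weeks against 376 and 369 in A/J controls. Both C57BL/6 arrays at 3 weeks were above all A/J arrays at 3 weeks, and the A/J arrays at 3 weeks were above their controls. The difference was 1.91 (SE 0.40, adjusted p = 0.0215). The related metallothionein Mt1 differed by 1.81 and did not pass (adjusted p = 0.0793). Myc, a growth-promoting transcription factor, differed by 1.57 (SE 0.33, adjusted p = 0.021), with signals of 115 and 106 in C57BL/6 lungs at 3 weeks against 26 and 30.5 in C57BL/6 controls, and 38.8, 45.6, 40.5 and 47.2 in A/J lungs at 3 weeks against 42.1 and 48.8 in A/J controls.

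Extracellular matrix genes had 8 positive differences and 1 negative among 46 tested (1 and 0 under the deposited scaling, 2 and 0 at matched doses), with a median change of 0.57 in C57BL/6 and 0.14 in A/J. Of the 46, 23 rose in C57BL/6 and 6 in A/J, where 7.09% and 0.793% of all genes rose. The largest positive difference of all genes was that of Tnc, tenascin C, a matrix protein of wound repair. Its signals were 701 and 531 in C57BL/6 lungs at 3 weeks against 42.7 and 56.9 in C57BL/6 controls, and 54.3, 117, 101 and 122 in A/J lungs at 3 weeks against 63.1 and 48.7 in A/J controls. The C57BL/6 lungs at 3 weeks were separate from all others, while the A/J male pool at 80 mg/kg lay within the range of the A/J controls. Tnc rose by 3.26 in C57BL/6, its A/J change of 0.63 did not pass, and the difference was 2.63 (SE 0.47, adjusted p = 0.00994). Fn1, fibronectin, had signals of 4865 and 4236 in C57BL/6 lungs at 3 weeks against 1363 and 1463 in C57BL/6 controls, and 2556, 2548, 3103 and 3161 in A/J lungs at 3 weeks against 2185 and 1533 in A/J controls. Its difference was 1.05 (SE 0.23, adjusted p = 0.0298), with values of 1.60 between male and 0.50 between female arrays. A second, dimmer Fn1 probe set gave 0.78 (adjusted p = 0.334 over all probe sets).

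Tgfbi, a TGF-beta induced matrix protein, differed by 1.13 (SE 0.20, adjusted p = 0.00994) and rose in both strains (1.74 in C57BL/6 and 0.61 in A/J). Fmod, fibromodulin, a proteoglycan that shapes collagen fibrils, had signals of 185 and 151 in C57BL/6 lungs at 3 weeks against 102 and 95.8 in C57BL/6 controls, and 54.9, 65.2, 64.9 and 77 in A/J lungs at 3 weeks against 115 and 106 in A/J controls. It was higher than control in both C57BL/6 arrays and lower than control in all 4 A/J arrays, with changes of 0.67 in C57BL/6 and −0.64 in A/J (adjusted p = 0.0301 and 0.092) and a difference of 1.31 (adjusted p = 0.0153). Ccn2, the matricellular connective tissue growth factor, differed by 0.92 (adjusted p = 0.0499). The remaining positive members were Col15a1 (1.26), Fbln2 (1.12) and Col5a2 (1.09). The negative member was Ogn, osteoglycin, with signals of 589 and 819 in C57BL/6 lungs at 3 weeks against 1921 and 1973 in C57BL/6 controls, and 1436, 1247, 1441 and 1364 in A/J lungs at 3 weeks against 1682 and 1525 in A/J controls, and a difference of −1.24 (SE 0.22, adjusted p = 0.0103).

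The main fibrillar collagen genes did not pass on their brightest probe sets. Col1a1 had signals of 1753 and 1728 in C57BL/6 lungs at 3 weeks against 671 and 743 in C57BL/6 controls, and 406, 561, 333 and 661 in A/J lungs at 3 weeks against 301 and 348 in A/J controls. C57BL/6 controls were already above the A/J controls by 1.09 (adjusted p = 0.017). The differences in change were 0.76 (SE 0.31, adjusted p = 0.251) for Col1a1, 0.25 (SE 0.15, adjusted p = 0.475) for Col1a2 and −0.01 (SE 0.24, adjusted p = 0.988) for Col3a1, with 95% intervals of 0.11 to 1.40, −0.07 to 0.57 and −0.52 to 0.49. Col1a1 and Col1a2 rose in C57BL/6 (1.28 and 0.62), and their A/J changes of 0.53 and 0.37 did not pass. A second, dimmer probe set of each gene, looked at after the values were seen, gave another answer: differences of 1.78 for Col1a1 (adjusted p = 0.00952 over all probe sets), 1.51 for Col1a2 (adjusted p = 0.0296) and 1.04 for Col3a1 (adjusted p = 0.0848). The change on these probe sets was 1.94, 1.90 and 1.57 in C57BL/6 and 0.16, 0.39 and 0.53 in A/J. Which of the probe sets tracks the transcript better was not tested.

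Among 25 matrix proteases and inhibitors 3 had a positive and 0 a negative difference (1 call under the deposited scaling and 1 at matched doses). Of the 25, 16 rose in C57BL/6 and 7 in A/J, where 7.09% and 0.793% of all genes rose. Timp1, a secreted inhibitor of metalloproteases, had signals of 1674 and 997 in C57BL/6 lungs at 3 weeks against 123 and 100.2 in C57BL/6 controls, and 218, 210.4, 244 and 278 in A/J lungs at 3 weeks against 84.6 and 81.2 in A/J controls. Treated and control arrays were separate in both strains, and the 2 C57BL/6 arrays at 3 weeks were above all 4 A/J arrays at 3 weeks. Timp1 rose by 3.36 in C57BL/6 and 1.35 in A/J, and the difference was 2.01 (SE 0.34, adjusted p = 0.00801). Mmp14, a membrane-bound collagenase, differed by 1.23 (SE 0.25, adjusted p = 0.021), with signals of 801 and 752 in C57BL/6 lungs at 3 weeks against 183 and 237 in C57BL/6 controls, and 359.5, 356, 377 and 429.8 in A/J lungs at 3 weeks against 237 and 256 in A/J controls. A second, dimmer Mmp14 probe set gave 1.08 (SE 0.65, adjusted p = 0.502 over all probe sets). Mmp12, the macrophage elastase, rose by 3.27 in C57BL/6 and 2.37 in A/J and its difference of 0.90 did not pass (95% interval −0.43 to 2.23).

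In the TGF-beta and BMP pathway 2 genes had a positive and 2 a negative difference among 33 tested, and the list's median difference was 0.10. The ligand gene Tgfb1 did not differ detectably (0.23, 95% interval −0.48 to 0.94), with signals of 579 and 571 in C57BL/6 lungs at 3 weeks against 429 and 364 in C57BL/6 controls, and 368, 538, 406 and 352 in A/J lungs at 3 weeks against 259 and 425 in A/J controls. Fst, follistatin, a secreted inhibitor of activin, had signals of 364 and 204 in C57BL/6 lungs at 3 weeks against 36.7 and 45.6 in C57BL/6 controls, and 68.5, 81, 107 and 64.4 in A/J lungs at 3 weeks against 65 and 73.6 in A/J controls. It rose by 2.34 in C57BL/6, its A/J arrays at 3 weeks overlapped with the A/J controls, and the difference was 2.19 (SE 0.44, adjusted p = 0.0171). Ltbp2, a microfibril protein of the latent TGF-beta binding family, had signals of 929.8 and 839 in C57BL/6 lungs at 3 weeks against 227 and 231 in C57BL/6 controls, and 250.0, 213, 276 and 288 in A/J lungs at 3 weeks against 232 and 169.5 in A/J controls. It differed by 1.54 (SE 0.24, adjusted p = 0.00408). The negative members were Bmp6, a bone morphogenetic protein, with a difference of −0.98 (SE 0.22, adjusted p = 0.0352), and the co-receptor Eng, given with the endothelium. Under the deposited scaling 0 of this list were called as negative, and at matched doses 1 was called as positive and 0 as negative.

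**Figure D3:**
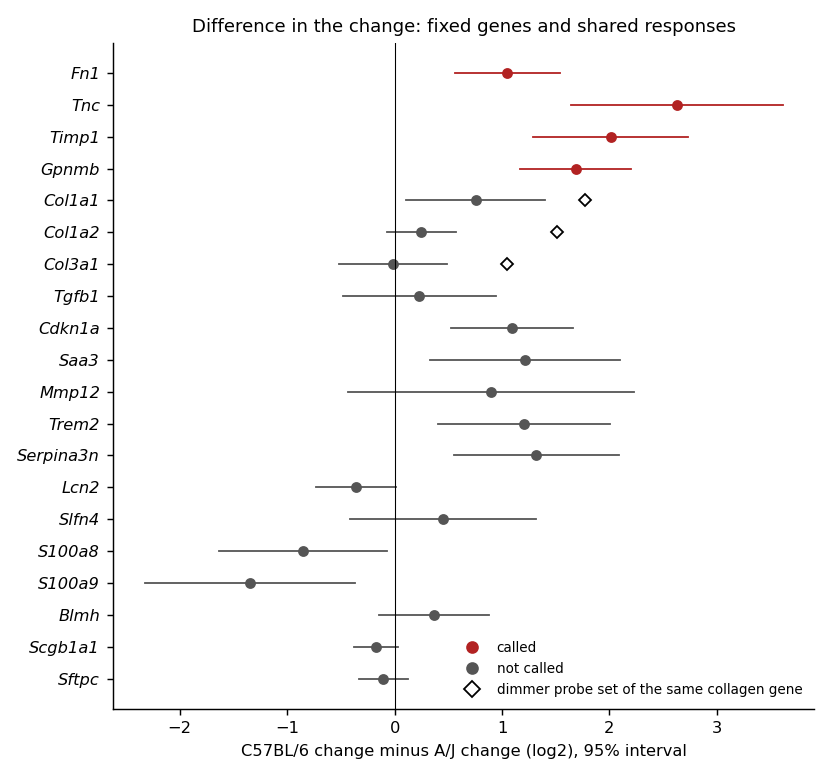
Difference in the change (C57BL/6 minus A/J, log2) with its 95% interval for 20 named genes, among them the collagens and the genes with shared rises. Red marks called genes, grey marks genes not called and open diamonds the dimmer probe set of the same collagen gene. Tnc, Timp1, Gpnmb and Fn1 are called, and the collagen diamonds at 1.78, 1.51 and 1.04 lie to the right of the brightest probe sets.

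Cell cycle genes rose mainly in C57BL/6, with 21 of 35 that rose there and 2 that rose in A/J, and 2 positive and 0 negative differences. Among all genes 7.09% rose in C57BL/6 and 0.793% in A/J. Their median change was 0.87 in C57BL/6 and 0.24 in A/J, and 32 of 35 had a difference above 0 against 51.8% of all genes. Mcm2, a subunit of the replicative helicase, had signals of 244 and 455 in C57BL/6 lungs at 3 weeks against 112 and 105 in C57BL/6 controls, and 69.7, 123, 83.3 and 105 in A/J lungs at 3 weeks against 156 and 127 in A/J controls. All 4 A/J lungs at 3 weeks were below both A/J controls, and both C57BL/6 lungs at 3 weeks were above their controls. The difference was 2.01 (SE 0.40, adjusted p = 0.0177), while its second probe set gave 0.66 (adjusted p = 0.217) with an A/J change of 0.06. Anln, anillin, which acts in cytokinesis, differed by 1.11 (adjusted p = 0.0407). At matched doses 0 genes of this list were called, and 1 was under either other scaling.

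Targets of p53, the factor that answers DNA breaks, gave 1 positive difference among 30, where 0.925% of all genes had one. Psrc1, a microtubule-associated p53 target, rose by 2.79 in C57BL/6 and 1.11 in A/J and differed by 1.67 (SE 0.38, adjusted p = 0.0354). A second Psrc1 probe set gave 0.41 (unadjusted p = 0.305), and under the deposited scaling and at matched doses 0 p53 targets were called. Cdkn1a, which encodes the p21 inhibitor of the cell cycle, had signals of 1652 and 1699.8 in C57BL/6 lungs at 3 weeks against 293 and 268 in C57BL/6 controls, and 881, 855, 899.7 and 1317 in A/J lungs at 3 weeks against 299.5 and 415 in A/J controls. Treated arrays were above controls in both strains, and the C57BL/6 lungs at 3 weeks were above the A/J lungs at 3 weeks. Cdkn1a rose by 2.51 in C57BL/6 and 1.42 in A/J, and the difference of 1.09 missed the threshold (SE 0.27, adjusted p = 0.0521). A second, dimmer Cdkn1a probe set gave 0.51 (unadjusted p = 0.238), with changes of 2.34 in C57BL/6 and 1.83 in A/J. Blmh, the hydrolase that inactivates bleomycin, had signals of 343 and 361 in C57BL/6 lungs at 3 weeks against 248 and 306 in C57BL/6 controls, and 255, 265, 330.3 and 332 in A/J lungs at 3 weeks against 291 and 309 in A/J controls, and a difference of 0.37 (95% interval −0.15 to 0.88) that did not pass. Of 19 genes of bleomycin handling and DNA break repair 0 differed by limma's adjusted p, and 2 had an unadjusted p under 0.05. Over all 9079 genes 1361 had such an unadjusted p, which stands beside the same count of every later list.

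Many endothelial genes fell in C57BL/6. Of 37 tested, 0 had a positive and 4 a negative difference, 22 fell in C57BL/6 against 1 in A/J, and the median change was −0.61 in C57BL/6 and −0.05 in A/J. Over all genes 5.97% fell in C57BL/6 and 0.242% in A/J. Eng, endoglin, an endothelial co-receptor for TGF-beta and BMP ligands, had signals of 874 and 1221 in C57BL/6 lungs at 3 weeks against 1727 and 1794 in C57BL/6 controls, and 2088, 2212, 2273 and 1940.2 in A/J lungs at 3 weeks against 1599 and 1794 in A/J controls. The 2 C57BL/6 arrays at 3 weeks lay below every other array, and all 4 A/J arrays at 3 weeks lay above their controls. Its difference was −1.08 (SE 0.21, adjusted p = 0.0153), while a second, dimmer Eng probe set gave −0.09. Car4, a carbonic anhydrase on alveolar capillaries, had signals of 262 and 382 in C57BL/6 lungs at 3 weeks against 772 and 695 in C57BL/6 controls, and 1114, 1338, 977 and 948 in A/J lungs at 3 weeks against 1063 and 1188 in A/J controls. It differed by −1.12 (SE 0.27, adjusted p = 0.0421). Tmem100, a membrane protein downstream of BMP signalling, differed by −1.02 and the vascular phosphatase Ptprb by −1.01 (adjusted p = 0.0454 and 0.0207). The pan-endothelial genes Cdh5, Kdr, Tek and Pecam1 had differences of −1.21, −1.03, −0.73 and −0.60 that did not pass. These 4 were chosen after their values were seen, as was Vwf, which had 0.05. Under the deposited scaling, the scaling to 1 median and matched doses 0 endothelial genes were called, and under the 2 scalings the median difference was −0.31 and −0.39 where that of all genes was 0.19 and 0.12. The summed signal of the list was 21225 to 25030.4 in C57BL/6 at 3 weeks against 34223 to 35731 in C57BL/6 controls, and 33356 to 36603 in A/J at 3 weeks against 34556 to 36283 in A/J controls.

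Genes of type 2 alveolar cells, which make surfactant, had 0 positive and 3 negative differences among 25. Of the 25, 9 fell in C57BL/6 and 0 in A/J, where 5.97% and 0.242% of all genes fell. The median change was −0.39 in C57BL/6 and 0.06 in A/J. Sftpa1, surfactant protein A, had signals of 3971 and 3971 in C57BL/6 lungs at 3 weeks against 5814 and 6274 in C57BL/6 controls, and 6041, 6192, 5664 and 5506 in A/J lungs at 3 weeks against 5431 and 5340.5 in A/J controls. The 2 C57BL/6 lungs at 3 weeks were below all others, and the A/J lungs at 3 weeks lay above the A/J controls. The difference was −0.72 (SE 0.13, adjusted p = 0.00994). Etv5, a transcription factor of the type 2 cell, differed by −1.39 (SE 0.33, adjusted p = 0.0404) and Ppp1r14c, an inhibitor of protein phosphatase 1, by −0.97 (SE 0.18, adjusted p = 0.0111). A second, dimmer Etv5 probe set gave −1.04 (adjusted p = 0.445 over all probe sets). Under the deposited scaling and the scaling to 1 median 0 of the 25 were called (1 at matched doses), with median differences of −0.32 and −0.40. Sftpc, surfactant protein C, had a difference of −0.10 that did not pass, and lay at the top of the scale, which quantile normalization holds fixed. Its difference ran from −0.26 to −0.04 over the 23 alternative settings, among them the 2 scalings without the quantile step. Among 14 genes of type 1 alveolar cells 1 had a negative difference, Limch1, with signals of 1785 and 1899 in C57BL/6 lungs at 3 weeks against 2829 and 3094 in C57BL/6 controls, and 2095, 2045, 2167 and 2219.8 in A/J lungs at 3 weeks against 2006 and 2052 in A/J controls, and a difference of −0.75 (SE 0.15, adjusted p = 0.0178), beside a control level that was higher in C57BL/6 by 0.54. Its second probe set gave −0.24 (unadjusted p = 0.259). The type 1 list had 0 calls under the deposited scaling, the scaling to 1 median and matched doses, and its median difference of −0.16 turned to 0.07 under the deposited scaling. The summed signal of the type 1 list was 23334 to 23404 in C57BL/6 at 3 weeks against 29022 to 30218 in C57BL/6 controls, and 29047 to 31611 in A/J at 3 weeks against 31148 to 31380.0 in A/J controls.

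Oxidative drug-metabolizing enzymes had 0 positive and 5 negative differences among 26 tested. Of the 26, 15 fell in C57BL/6 and 0 in A/J, where 5.97% and 0.242% of all genes fell. The median change was −0.61 in C57BL/6 and −0.10 in A/J. The list's median difference of −0.47 was −0.19 under the deposited scaling, with 1 call, and −0.25 with scaling to 1 median, with 3 calls. Fmo1, a flavin monooxygenase, had signals of 667 and 631 in C57BL/6 lungs at 3 weeks against 1878 and 1652 in C57BL/6 controls, and 2149, 1872, 2162 and 1774 in A/J lungs at 3 weeks against 2368 and 2418 in A/J controls. The 2 C57BL/6 arrays at 3 weeks were far below all others, and the A/J arrays at 3 weeks were below their controls. The difference was −1.15 (SE 0.16, adjusted p = 0.00131). Cyp4b1, a P450 abundant in rodent lung, had signals of 1304 and 1311 in C57BL/6 lungs at 3 weeks against 2984 and 3151 in C57BL/6 controls, and 3733, 3884, 3607 and 2836 in A/J lungs at 3 weeks against 3033 and 3505 in A/J controls. It differed by −1.32 (SE 0.17, adjusted p = 0.00105). The A/J arrays at 3 weeks overlapped with their controls for this gene. Cyp1a1, a P450 induced through the aryl hydrocarbon receptor, differed by −1.85 (SE 0.32, adjusted p = 0.00847), and the aldehyde oxidases Aox3 and Aox1, neighbours on chromosome 1, by −1.49 and −0.99. Gstm1, a glutathione transferase, differed by −0.94 (SE 0.18, adjusted p = 0.0136), with signals of 791 and 772 in C57BL/6 lungs at 3 weeks against 2091 and 1698 in C57BL/6 controls, and 1872, 1928, 2099.7 and 1559 in A/J lungs at 3 weeks against 2349.8 and 2273 in A/J controls, and its near-identical paralogs may share its probes. Its other probe sets gave −0.95, −0.72 and −0.20. The antioxidant list that holds Gstm1 also holds Mt2, with 1 call each way among 35 genes.

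**Figure D4:**
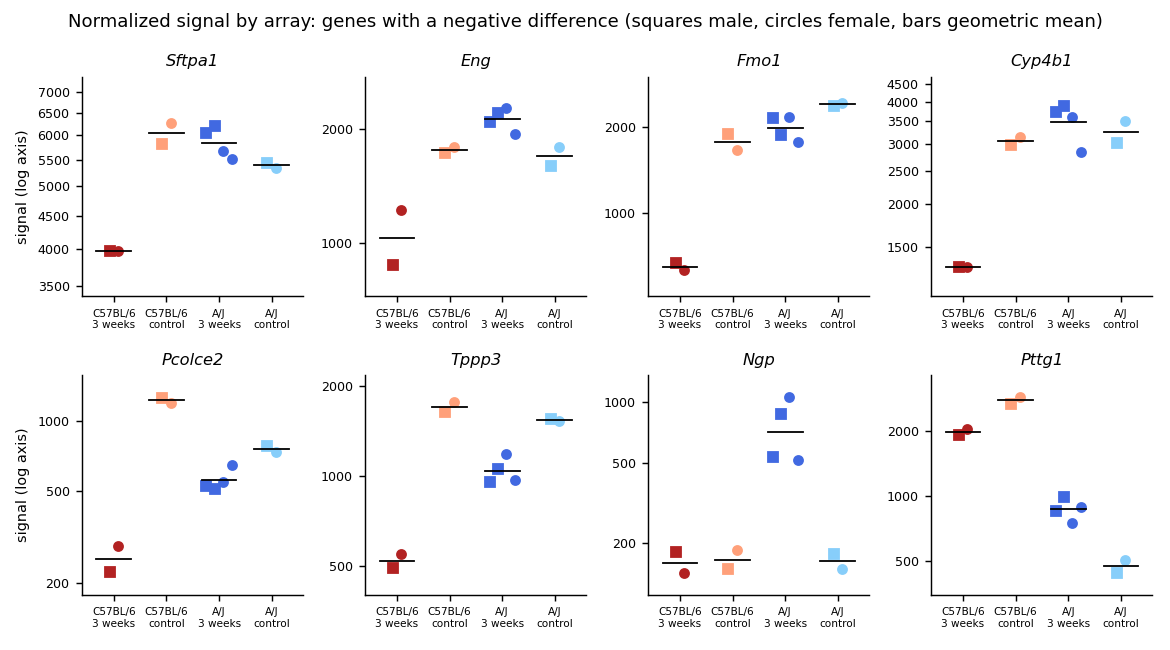
Normalized signal per array on log axes for 8 genes with a negative difference, in C57BL/6 at 3 weeks, C57BL/6 controls, A/J at 3 weeks and A/J controls. Squares are male pools, circles female pools and bars geometric means. In the panels of Sftpa1, Eng, Fmo1, Cyp4b1, Pcolce2 and Tppp3 both C57BL/6 arrays at 3 weeks lie below all others, Ngp is highest in A/J at 3 weeks, and Pttg1 moves in opposite directions.

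Airway genes split, with 2 positive and 2 negative differences among 21 airway secretory genes. Reg3g, an antibacterial lectin, had signals of 974 and 1049 in C57BL/6 lungs at 3 weeks against 307 and 403 in C57BL/6 controls, and 299, 261, 371 and 236 in A/J lungs at 3 weeks against 323 and 357 in A/J controls. It differed by 1.71 (SE 0.37, adjusted p = 0.025). Muc5b, a gel-forming mucin of the airways, had signals of 555 and 538 in C57BL/6 lungs at 3 weeks against 387 and 380.1 in C57BL/6 controls, and 308, 243, 382 and 297 in A/J lungs at 3 weeks against 540.4 and 511 in A/J controls. Both C57BL/6 lungs at 3 weeks were above their controls and all 4 A/J lungs at 3 weeks were below theirs. Muc5b fell in A/J (−0.76, adjusted p = 0.0159), its C57BL/6 change of 0.49 did not pass, and the difference was 1.25 (SE 0.23, adjusted p = 0.0111). The negative members were Fmo1, given above, and Pon1, a paraoxonase, with a difference of −1.14 (SE 0.22, adjusted p = 0.0153). Of 11 genes of ciliated cells 1 differed, the tubulin polymerization protein Tppp3, with signals of 493 and 550.3 in C57BL/6 lungs at 3 weeks against 1639 and 1766 in C57BL/6 controls, and 954, 1054, 1184 and 969 in A/J lungs at 3 weeks against 1551 and 1523 in A/J controls. It fell in both strains (−1.68 in C57BL/6 and −0.56 in A/J) and the difference was −1.12 (SE 0.17, adjusted p = 0.00295). Under the deposited scaling 1 positive and 0 negative airway secretory genes were called, and 0 ciliated genes.

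In neutrophil genes the median change in A/J was not the smaller one. Of 12 tested, 0 had a positive and 1 a negative difference, and 6 had a difference above 0. In C57BL/6 7 rose and in A/J 8, where 7.09% and 0.793% of all genes rose. The median change was 0.97 in C57BL/6 and 1.56 in A/J. Ngp, a granule protein of immature neutrophils, had signals of 182 and 142 in C57BL/6 lungs at 3 weeks against 149 and 185 in C57BL/6 controls, and 532, 868, 1059 and 515 in A/J lungs at 3 weeks against 178 and 150.3 in A/J controls. The 4 A/J arrays at 3 weeks were above all others, and the 2 C57BL/6 groups overlapped. Ngp rose by 2.02 in A/J, its C57BL/6 change was −0.04, and the difference of −2.06 (SE 0.43, adjusted p = 0.0215) was the largest negative one. S100a8 and S100a9, the calprotectin subunits, rose in both strains, by 1.70 and 1.44 in C57BL/6 and by 2.55 and 2.78 in A/J. Their differences of −0.85 and −1.35 did not pass (adjusted p = 0.286 and 0.168). Summed neutrophil signals were 7283 to 7555 in C57BL/6 at 3 weeks against 2652 to 3129 in C57BL/6 controls, and 8548 to 13785 in A/J at 3 weeks against 2639 to 2736 in A/J controls. The list's median difference of −0.15 turned to 0.03 under the deposited scaling.

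Markers of tissues and cells that can travel with a lung sample also moved with the groups. Of 7 tested red cell genes 1 differed, Hbb-b2, a beta globin whose near-identical copies may share probes, with signals of 50.7 and 40.3 in C57BL/6 lungs at 3 weeks against 140.4 and 177 in C57BL/6 controls, and 407, 285, 263 and 254 in A/J lungs at 3 weeks against 261 and 243 in A/J controls, and a difference of −1.73 (SE 0.35, adjusted p = 0.0181). Alas2, the haem synthesis enzyme of red cell precursors, had a difference of −1.56 that did not pass. Summed red cell signals were 1983 to 2382 in C57BL/6 at 3 weeks against 3881 to 3982 in C57BL/6 controls, and 4064 to 5667 in A/J at 3 weeks against 3726 to 4563 in A/J controls. Heart and skeletal muscle genes summed to 3328 to 4010.1 in C57BL/6 at 3 weeks against 8379.6 to 8827 in C57BL/6 controls, and 5811 to 6917 in A/J at 3 weeks against 9321 to 11251 in A/J controls. Muscle sums at 3 weeks were below the control sums in both strains. A called difference was found in 0 of 27 muscle genes, and 5 had an unadjusted p under 0.05, as had 1361 of all 9079 genes. Myl7, an atrial myosin chain that also marks the muscle of pulmonary veins in mice, came nearest (−0.93, adjusted p = 0.096). Among 13 B and plasma cell genes 0 differed, 2 of them at an unadjusted p under 0.05. Igha, the heavy chain of immunoglobulin A, had signals of 358 and 297 in C57BL/6 lungs at 3 weeks against 262 and 180.1 in C57BL/6 controls, and 1111, 1447, 1383 and 2029 in A/J lungs at 3 weeks against 2346 and 2495 in A/J controls, a control level difference of −3.38 and a difference in change of 1.28 (adjusted p = 0.0766). The part of blood, muscle and lymphoid cell content in the differences of other groups was not tested.

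Several of the largest differences lay outside the lists. Armcx4, an armadillo repeat gene on the X chromosome, had the smallest adjusted p of all, with signals of 187 and 239 in C57BL/6 lungs at 3 weeks against 44.2 and 51.4 in C57BL/6 controls, and 113, 129, 152 and 129 in A/J lungs at 3 weeks against 168 and 172 in A/J controls. The C57BL/6 controls were far below the A/J controls (−1.54, adjusted p = 1.63e-05), the C57BL/6 arrays at 3 weeks were above all A/J arrays at 3 weeks, and the difference was 2.18 (SE 0.21, adjusted p = 8.09e-05). Sfrp1, a secreted inhibitor of Wnt signalling, had signals of 395 and 396 in C57BL/6 lungs at 3 weeks against 70.7 and 63 in C57BL/6 controls, and 99.3, 100.2, 67.8 and 90.1 in A/J lungs at 3 weeks against 65.5 and 63.9 in A/J controls. It differed by 1.94 (SE 0.37, adjusted p = 0.0124). Tubb6, a beta tubulin, had signals of 237 and 236 in C57BL/6 lungs at 3 weeks against 44.9 and 53.2 in C57BL/6 controls, and 87.2, 63.6, 79 and 138 in A/J lungs at 3 weeks against 99.4 and 74.2 in A/J controls. Its A/J groups overlapped, and the difference was 1.92 (SE 0.44, adjusted p = 0.0354).

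On the negative side, Pcolce2, an enhancer of procollagen processing, had signals of 224 and 291 in C57BL/6 lungs at 3 weeks against 1246 and 1194 in C57BL/6 controls, and 525, 506, 547 and 645 in A/J lungs at 3 weeks against 776 and 730.4 in A/J controls. The C57BL/6 arrays were the lowest of all at 3 weeks and the highest of all in controls, and the difference was −1.75 (SE 0.23, adjusted p = 0.00124). Slc7a10, a transporter of small neutral amino acids, had signals of 89.1 and 128 in C57BL/6 lungs at 3 weeks against 363 and 454 in C57BL/6 controls, and 338, 408, 310.4 and 401 in A/J lungs at 3 weeks against 379 and 376 in A/J controls. It differed by −1.72 (SE 0.24, adjusted p = 0.00131). The cadherin Cdh16 differed by −1.67 (SE 0.29, adjusted p = 0.00847), the dipeptidase Dpep1 by −1.73 (SE 0.29, adjusted p = 0.00707) and Bex2 by −1.85 (SE 0.30, adjusted p = 0.00576). For these genes the A/J arrays at 3 weeks overlapped with their controls or lay near them. Gjb6, a gap junction protein, had signals of 31.3 and 40.0 in C57BL/6 lungs at 3 weeks against 54.1 and 123 in C57BL/6 controls, and 86, 95.2, 144 and 81.4 in A/J lungs at 3 weeks against 39.2 and 45.3 in A/J controls. Its A/J arrays at 3 weeks were all above their controls, neither strain's change passed alone (−0.94 in C57BL/6 and 0.99 in A/J), and the difference was −1.93 (SE 0.42, adjusted p = 0.0271). Mettl7a1, Mapt, which encodes the microtubule protein tau, and Gas1, a growth arrest protein, differed by −1.60, −1.60 and −1.66. Dimmer probe sets gave −2.27 for Mettl7a1, −0.66 and −1.83 for Mapt and −0.84 for Gas1, none of them called over all probe sets.

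A single gene was called in opposite directions within the strains. Pttg1, securin, which holds back the separation of sister chromatids until anaphase, had signals of 1908 and 2052 in C57BL/6 lungs at 3 weeks against 2676 and 2857 in C57BL/6 controls, and 858, 996, 749 and 891 in A/J lungs at 3 weeks against 444 and 508 in A/J controls. The 4 groups did not overlap. A second, dimmer Pttg1 probe set gave a difference of −0.83 (adjusted p = 0.243). On the brightest one Pttg1 fell by 0.48 in C57BL/6 (adjusted p = 0.0356) and rose by 0.85 in A/J (adjusted p = 0.00128), and the difference was −1.33 (SE 0.19, adjusted p = 0.0021). The control level was higher in C57BL/6 by 2.50 (adjusted p = 7.35e-09). Whether the array's probes match both strains' transcripts equally was not tested, for this gene or any other.

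Of the 72 genes that changed in both strains in the same direction, 61 rose and 11 fell, and 10 of the 72 were called in the difference. The genes with the largest shared rises that were not called were Trem2, Saa3, Mmp12, Lcn2, S100a8, S100a9, Slfn4 and Serpina3n. Saa3, an acute phase apolipoprotein, had signals of 961 and 612 in C57BL/6 lungs at 3 weeks against 32.6 and 57.3 in C57BL/6 controls, and 338, 482, 496 and 447 in A/J lungs at 3 weeks against 76.9 and 53 in A/J controls. Treated and control arrays were separate in both strains, and the difference of 1.22 did not pass (95% interval 0.33 to 2.10, adjusted p = 0.168). Lcn2, a siderophore-binding protein of injured epithelium and neutrophils, had signals of 1964 and 2085 in C57BL/6 lungs at 3 weeks against 534 and 598 in C57BL/6 controls, and 1575, 1564, 1695 and 1730.0 in A/J lungs at 3 weeks against 306 and 406 in A/J controls. It rose by 1.81 in C57BL/6 and 2.17 in A/J, with a difference of −0.36 and an interval of −0.73 to 0.01. Trem2, a lipid receptor of macrophages, rose by 3.31 in C57BL/6 and 2.11 in A/J, with a difference of 1.20 and an interval of 0.40 to 2.0. Slfn4, a myeloid Schlafen gene, rose by 2.02 in C57BL/6 and 1.57 in A/J, with a difference of 0.45 and an interval of −0.42 to 1.32. Serpina3n, a protease inhibitor of the acute phase, had a difference of 1.32 (adjusted p = 0.0793). The intervals of Slfn4 and Mmp12 hold both no difference and one of more than 2-fold.

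In several lists the median changes of the strains lay close together, which was not tested as such. B and plasma cell genes had medians of −0.75 in C57BL/6 and −0.69 in A/J, p53 targets 0.24 and 0.22 in the same order, and cholesterol synthesis genes −0.07 and −0.08. Circadian clock genes had −0.44 in C57BL/6 and −0.43 in A/J, and 0 of 14 differed (2 at an unadjusted p under 0.05, against 1361 of all 9079 genes). The clock median difference was −0.44 between male and 0.64 between female arrays, opposite in sign, and the labels give no time of day. The macrophage median difference was 0.74 between male and 0.58 between female arrays, and the endothelial one −0.67 and −0.48. Over the 84 positive genes the male arrays gave a median difference of 1.48 and the female arrays 1.12, and over the 58 negative genes −1.28 and −0.99. All 142 had the same sign in both sexes, on the arrays by which they were called.

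The other lists held few calls, and over all genes 0.925% were called as positive and 0.639% as negative. Among 17 smooth muscle and myofibroblast genes 1 had a positive difference, Cald1, an actin-binding protein, with 0.84 (SE 0.16, adjusted p = 0.0116) and with 0.51 and 0.36 on its other probe sets. In antigen presentation the 1 call among 19 was Ctss, in the 23 glucocorticoid and metallothionein genes it was Mt2, in the 30 immediate early and heat shock genes Myc, in the 13 keratin and injured epithelium genes Ccn2, and in the 19 fatty acid oxidation genes Cyp4b1, all given above. By limma's adjusted p 0 genes differed among 19 T and NK cell, 17 adipocyte, 16 cholesterol synthesis, 22 endoplasmic reticulum and 16 glycolysis genes, with 0, 3, 0, 4 and 4 of them at an unadjusted p under 0.05. Of all 9079 genes 1361 lay under that threshold. The gene nearest to a call was the perforin gene Prf1 (−0.46, adjusted p = 0.469) among T and NK cell genes, the carbonic anhydrase Car3 (−1.11, adjusted p = 0.179) among adipocyte genes, Idi1 (−0.44, adjusted p = 0.399) of the sterol pathway, the asparagine synthetase Asns (0.49, adjusted p = 0.224) and the pyruvate kinase Pkm (0.55, adjusted p = 0.146). Kit, the receptor of mast cells, had −0.26 (adjusted p = 0.687), the drug efflux pump Abcb1a −0.63 (adjusted p = 0.166) and the clock regulator Bhlhe40 0.96 (adjusted p = 0.131).

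**Figure D5:**
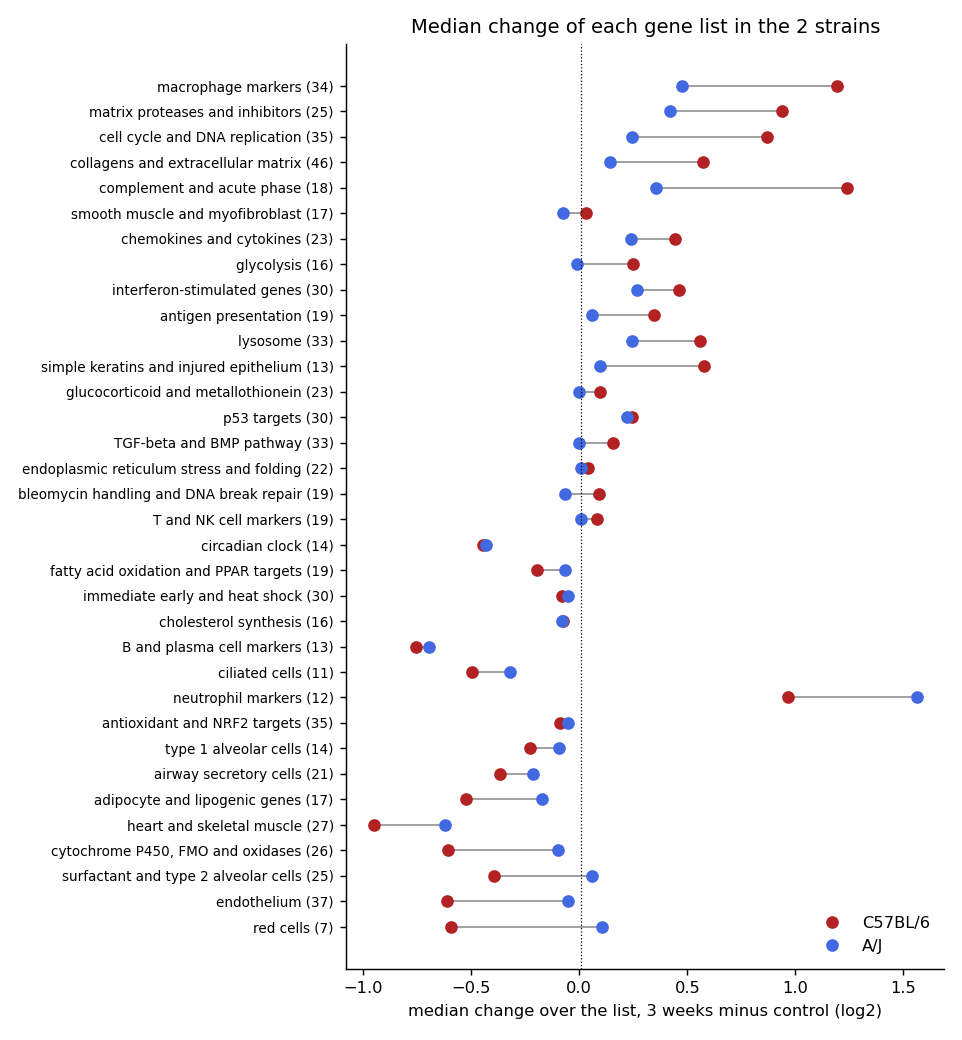
Median change at 3 weeks over each gene list in C57BL/6 (red) and A/J (blue), log2, with the number of tested genes in brackets, sorted by the median difference. The dotted line is the median change of all 9079 genes in C57BL/6, 0.01, and the mast cell and the sex-linked list, with 3 and 2 tested genes, are not drawn. Macrophage markers lie at 1.19 in C57BL/6 and 0.48 in A/J, and endothelium at −0.61 and −0.05.

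Among the 94 genes chosen by the naming rule 67 had a called difference, and 5 of them, Armcx4, C1qa, C1qc, Ccl9 and Gpnmb, were called under all 23 alternative settings, while 62 lost the call under at least 1 and 0 changed sign. Called genes named beyond that rule, such as Ms4a7, Fcgr3, Cd68 and Mrc1, are not in these counts. Without the C57BL/6 male array at 3 weeks 13 of the 67 kept the call, and without the A/J male control 14 did. Other probe sets of the 142 called genes were available for 50 of them. Of these 75 probe sets 71 had the same sign as the brightest one, 44 had that sign at an unadjusted p under 0.05, and 9 were called among all probe sets.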

How the data were processed

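Lung RNA pools of 3 to 5 mice, as the labels put it, were hybridised to Affymetrix arrays, 21 in the series, of which 10 carry the C57BL/6 and A/J groups used here. The deposited values are linear intensities, 1 per probe set and array, made by the authors. The summarisation software and its scaling were not given in the sources used here. Intensities were quantile normalized over the 21 arrays, 16 was added and log2 taken. The dimmest 33.3% of probe sets and 64 control probe sets were left out, and the brightest of the remaining probe sets stood for each gene (20380 of 22690 probe sets had 1 gene symbol, 691 several and 1555 none), which left 9079 genes. limma 3.58.1 in R 4.3.3 fitted group means and a sex term to all 21 arrays (10 residual degrees of freedom), with the moderated test (eBayes with trend), two-sided, and Benjamini-Hochberg adjustment over all genes. The steps were tested on simulated data with known changes. The scale of the spread was a median SE of 0.26 for the difference, and the number of arrays limits the precision. No pair of the arrays held identical values, and correlations between the 10 arrays ran from 0.904 to 0.978.

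Genes named are the 12 largest called differences in each direction, up to 4 called genes of each of 36 gene lists or the nearest to a call, the 8 largest shared changes not called, genes called in opposite directions, and a fixed set of known injury genes (Spp1, in that set, was not among the genes tested). The remaining called members of a list, Mt1, Alas2, Sftpb, Cdh5, Kdr, Tek, Pecam1, Vwf and the dimmer probe sets were named after their values were seen. The comparison and the lists were chosen with earlier results of these data known. Alternatives were the scaling, the offset, the filter, the sex term, the arrays in the fit, array weights, brightness and Gapdh covariates, matched doses, the threshold, every probe set and each array left out. Promoter windows came from RefSeq (GRCm38.p6). Figures were drawn with matplotlib 3.10.9 in Python 3.11.15.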

Additional observations from a re-analysis of the deposited data

Results flagged for a closer look

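The strains differed in the change of 142 genes by the interaction itself, which is the comparison reported above. Pttg1 stood out among them, since it was called in opposite directions within the strains, with a difference of −1.33.

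In 5 of 93 named genes, 1 of the 4 A/J arrays at 3 weeks lay far from the other 3 by Dixon's test, which flags about 1 in 20 such groups by chance. The female pool at 125 mg/kg had a C1qc signal of 559 where the other A/J arrays at 3 weeks had 315 to 335. The same pool had a Cdkn1a signal of 1317 against 855 to 899.7, a Col3a1 signal of 2349.8 against 1451 to 1539.6, and a Pon1 signal of 869.9 against 1018 to 1037. The male pool at 100 mg/kg had a Cxcl10 signal of 9.55 against 38.6 to 47.4.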

How the results depend on the processing

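No paired analysis was possible because the replicate numbers join no animals: every array was its own pool. The 142 differences became 25 under the deposited scaling (23 of them among the 142), 249 with only the 10 arrays normalized and fitted (130 shared), 462 with array weights (142 shared), 40 with the Gapdh ratio as covariate (38 shared), 36 at matched doses (34 shared) and 314 at an adjusted p under 0.10. With 1 array left out in turn the count ran from 17, without the C57BL/6 male pool at 3 weeks, to 182, without the A/J female pool at 125 mg/kg. It was 19 and 51 without the male and the female A/J control, 66 and 49 without the male and the female C57BL/6 control, and 93 without the A/J male pool at 100 mg/kg. Where this left 1 array in a group, that array was assumed to vary like the other groups. The C57BL/6 change, 1186 genes, became 387 under the deposited scaling and 1845 with array weights, and 418 to 1150 with 1 array left out. The A/J change, 94 genes, became 227 with array weights, 164 at an adjusted p under 0.10, and 28 to 103. The control level, 254 genes, became 132 under the deposited scaling, 400 with only the 10 arrays, 478 over every probe set, 758 with array weights, 106 with the Gapdh covariate, 445 at an adjusted p under 0.10, and 65 to 247. The level at 3 weeks, 1471 genes, became 817 at matched doses and 435 to 1506. Of the 67 genes of the naming rule with a called difference, 22 kept the call under the deposited scaling, 51 with scaling to 1 median, 28 with the Gapdh covariate, 27 at matched doses and 13 without the C57BL/6 male pool at 3 weeks. The sign turned only for genes without a call. Col3a1 was 0.28 under the deposited scaling, 0.20 with scaling to 1 median, 0.0048 with array weights and −0.27 to 0.24 with 1 array left out, and Tgfb1 was −0.14 without the female A/J control and up to 0.60 without another array. Of its 27 genes without a call, 8 gained one under some setting. The cause of these changes was not tested, beyond the smaller number of arrays where arrays were left out.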
